A study of Mus musculus with 16 samples.

Results

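The messenger RNAs of 55 proteins of the cytosolic ribosome were followed in whole mouse kidney, with and without ischemia reperfusion injury and with and without a PARP inhibitor. The members were taken by gene symbol, 34 of the large subunit (Rpl3 to Rpl38 and the stalk proteins Rplp0, Rplp1 and Rplp2) and 21 of the small subunit (Rps2 to Rps27 and Rpsa). They are 55 of the 40472 genes in the count table. Each symbol matched a single Ensembl gene, all 55 were among the 13614 genes that passed the filter on low counts, and none had a library without counts. The other cytosolic ribosomal protein genes of the table, 25 in number, were no members and served for comparison, as did 78 mitochondrial ribosomal proteins.

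The study measured poly(A)-selected RNA from kidneys of male C57BL/6 mice aged 12 weeks, in 4 groups of 4 libraries. NV mice were uninjured and received vehicle, and NP mice were uninjured and received PJ34, a small molecule that inhibits poly(ADP-ribose) polymerases. IRV and IRP mice underwent ischemia reperfusion, in which the blood supply is stopped and restored, with vehicle (IRV) or PJ34 (IRP). The study asked what the inhibitor does in the longer term, but the labels give neither the day of collection nor the dose. They number the libraries without saying that each came from a separate mouse, so p-values measure the spread between libraries.

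Each cytosolic ribosome joins a small subunit, which reads the messenger RNA, to a large subunit, which forms the peptide bond. Cells make the proteins of both subunits in matched amounts, and most of their mRNAs begin with a C followed by a run of pyrimidines at the cap, the terminal oligopyrimidine or TOP motif, through which the growth kinase mTORC1 and the RNA-binding protein LARP1 set how much of them is translated. A change in translation through this motif need not show in the amount of mRNA, which is what was measured here. Several members also act outside the ribosome, among them Rpl5 and Rpl11, which with 5S rRNA bind Mdm2 and so stabilise p53.

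The libraries fell into 2 sets that cross the study's groups. All 4 IRP libraries and IRV 3 and IRV 4 held 4963638 to 6169748 counts (deep), and the other 10 libraries held 973812 to 1659983 (shallow). The sum of odorant, pheromone, taste and trace-amine receptor genes separated the sets too, at 239.7 to 500.2 CPM (deep) and 6215 to 11002 CPM (shallow). The number that ends each library's description in the labels ran from 35 to 40 in the deep set and was 1 to 7 or 32 to 34 in the shallow set; the labels do not say what it stands for. CPM are counts per 1e+06 of the TMM-scaled library size, TMM being a scaling that assumes most genes do not differ. The members' own counts summed to 4503 to 8538 in a shallow and 30012 to 54997 in a deep library. Injury differences are therefore also given within a set where the design allows it. All IRP libraries were deep and all NP libraries shallow, so there injury and library set can be separated only through IRV.

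The sequence around the transcription start was read for 45 members from RefSeq promoter windows (build GRCm38.p6, which is not the GRCm39 build of the counts). A C followed by at least 4 pyrimidines within 10 bases of the start, on the sense strand, was present in 26 of the 45 (57.8%) and in 34.4% of the 27025 genes in that table. A gene with several listed starts was counted if any of them had such a tract. Rps19 and Rpl22, for example, had it at some of their starts and not at others. Windows of 30 bases are shown for 10 members, 5 without and 5 with such a tract, because the members with the largest injury differences fell on both sides; capitals mark the tract, and each window reads 5′ to 3′ with 15 bases before the start.
Without a tract near the RefSeq start, from chrX:102189377-102189406 on the minus strand, chr7:28350674-28350703 on the plus strand, chrX:74270801-74270830 on the plus strand, chr15:5116598-5116627 on the plus strand and chr7:99483695-99483724 on the minus strand:
Rps4x: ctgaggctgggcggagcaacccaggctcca
Rps16: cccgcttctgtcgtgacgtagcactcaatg
Rpl10: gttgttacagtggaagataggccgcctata
Rpl37: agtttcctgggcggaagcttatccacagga
Rps3: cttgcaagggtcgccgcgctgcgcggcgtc
With a tract, from chr3:90213634-90213663 on the minus strand, chr17:33955651-33955680 on the minus strand, chr7:45128731-45128760 on the minus strand, chr4:86857353-86857382 on the minus strand and chr7:4792950-4792979 on the plus strand:
Rps27: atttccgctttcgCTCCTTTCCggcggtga
Rps18: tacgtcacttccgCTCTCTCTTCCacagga
Rpl13a: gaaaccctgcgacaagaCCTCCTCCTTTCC
Rps6: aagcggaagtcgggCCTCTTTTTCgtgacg
Rpl28: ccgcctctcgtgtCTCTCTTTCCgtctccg

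The Rps16 window does hold a C followed by 4 pyrimidines (cttct), which begins 1 base beyond the 10-base limit and so was not counted.

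Other letter patterns were searched on either strand of the 300-base windows. CTTCCG, the letters of an ETS factor site, was in 29 of 45 members (64.4%; 15 of 26 large and 14 of 19 small) against 18.8% of all genes. Its first letters themselves make a tract, so both searches can match the same bases. AAGATGG, the letters of a YY1 site, was in 7 of 45 (15.6%) against 7.28%. A match is a description of the letters in the window only. Members with and without a tract had similar median injury differences. In IRV against NV 1 of 26 members with a tract and 4 of 19 without passed the test, with median log2 differences of 0.18 and 0.16. In IRP against NP 5 of 26 and 5 of 19 passed, with medians of 0.15 and 0.23. All of these were higher after injury, where 15.9% of all genes were higher in IRV against NV and 19.6% in IRP against NP.

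Summed over the 34 large subunit members, mRNA stood at 3342, 2959, 3361 and 3250.1 CPM in NV 1 to 4 and at 3295, 3697, 3357 and 3359.7 in NP. After injury the sums were 2993, 3461, 4047 and 3818 in IRV and 4334, 3631, 3975 and 3962 in IRP. IRV 1 lay within the range of NV, IRV 2 a little above it, and the 2 deep IRV libraries above every uninjured library. All IRP libraries but IRP 2 lay above every uninjured library. Group means were 3228 ± 186 (NV), 3427 ± 182 (NP), 3579.9 ± 459 (IRV) and 3975 ± 287 (IRP; SD, n = 4).

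The 21 small subunit members summed to 1603, 1374, 1676 and 1629 CPM in NV and to 1631, 1751, 1620.2 and 1712 in NP. They summed to 1635, 1728, 2039 and 1911 CPM in IRV and to 2311, 1806, 2139.6 and 2016 in IRP. The order of the libraries was close to that of the large subunit, with IRP 1 and IRV 3 at the top of their groups in both. The small subunit sum divided by the large subunit sum was 0.486 ± 0.0172 in NV, 0.49 ± 0.0156 in NP, 0.512 ± 0.0227 in IRV and 0.519 ± 0.0195 in IRP (SD, n = 4). IRV 1 held the highest ratio of all 16 libraries, at 0.546, with a large subunit sum at the low end and a small subunit sum inside the uninjured range.

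**Figure D1:**
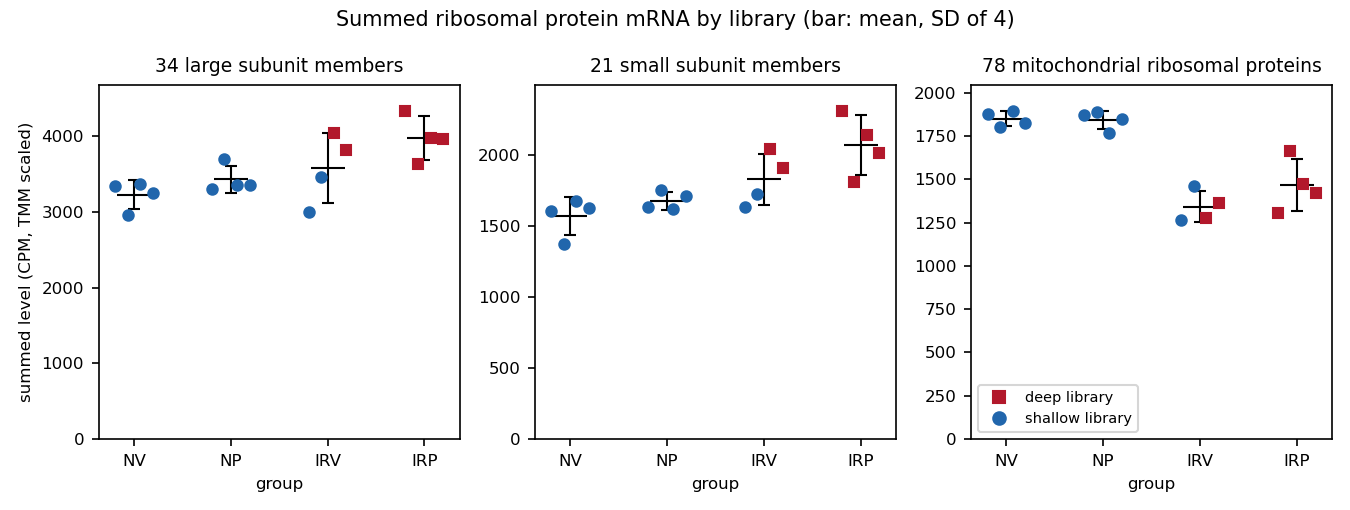
Summed CPM (TMM scaled, linear axis from 0) of the 34 large subunit members, 21 small subunit members and 78 mitochondrial ribosomal proteins in each of the 16 libraries, by group; squares are deep and circles shallow libraries, and bars give the mean and SD of 4. The deep libraries stand above all shallow ones for both cytosolic subunits, except IRP 2, which is under NP 2 for the large subunit. With this scaling all 8 injured libraries, deep or shallow, lie below the 8 uninjured ones for the mitochondrial ribosome, whose median difference in IRV against NV was -0.44 but 0.09 when libraries were scaled by totals alone.

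Injury without the inhibitor, IRV against NV, went with higher fitted levels for most of the cytosolic set, by an amount that depends on the scaling and the library set. Rpl3, Rpl10, Rpl19, Rpl37, Rps4x and Rps16 rose, and no member fell (edgeR quasi-likelihood test, Benjamini-Hochberg adjusted p under 0.05 over 13614 genes). That is 6 of 55 members, 10.9%, where 15.9% of all genes tested were higher and 11.1% lower, so the share called was under the background. None of the 6 passed with the library set as a term of the fit, which for this comparison rests on IRV 1 and 2 against NV. The 4 large subunit members were 4 of 34 and the 2 small subunit members 2 of 21. The fitted difference was positive for 46 of 55 members (26 of 34 large, 20 of 21 small) against 47.9% of all genes, with medians of 0.16 (large) and 0.21 (small) on the log2 scale and -0.03 over all genes. Scaled by library totals alone, the medians were 0.68 and 0.72 and that of all genes 0.49, and 45 members were called, where 42% of all genes were higher. An unadjusted p under 0.05 was found for 10 members and for 38.9% of all genes. Without a test, 5 members had all 4 IRV libraries above all 4 NV libraries (Rpl3, Rpl10, Rps4x, Rps16 and Rps27), where 15.1% of all genes did.

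Rps4x, an X-linked protein of the small subunit, had the lowest adjusted p of the members in both injury comparisons. It stood at 116, 107, 113 and 119.7 CPM in NV, 114, 126, 117 and 114 in NP, 137, 143, 193 and 183 in IRV and 215, 155, 180.5 and 179 in IRP. No injured library overlapped an uninjured one, and the shallow IRV 1 and 2 were the lowest 2 of the 8 injured libraries. The log2 difference was 0.54 ± 0.13 (SE), adjusted p = 0.0046 (a 1.45-fold level) in IRV against NV, and 0.63 ± 0.12 (SE), adjusted p = 0.000858 (1.55-fold) in IRP against NP.

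Rps16, whose tail reaches the tRNA in the P site, stood at 58.1, 32.5, 60.3 and 71.04 CPM in NV, 59.6, 81.8, 55.5 and 71.1 in NP, 72.98, 74.8, 106 and 96.4 in IRV and 117, 81.2, 99.4 and 103 in IRP. All injured libraries lay above NV, but NP 2 at 81.8 CPM was higher than IRV 1 and 2 and just above IRP 2. Its difference was 0.67 ± 0.20 (SE), adjusted p = 0.0184 in IRV against NV and 0.57 ± 0.19 (SE), adjusted p = 0.0223 in IRP against NP.

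Rpl3, which sits by the peptidyl transferase centre, stood at 193, 143, 148 and 185 CPM in NV, 147, 199, 177 and 191 in NP, 212, 212, 266 and 244 in IRV and 296, 223, 250.4 and 243 in IRP. All 8 injured libraries were above all 8 uninjured ones, by a small margin for IRV 1 and 2. It rose by 0.49 ± 0.14 in IRV against NV (adjusted p = 0.0139) and by 0.50 ± 0.14 in IRP against NP (adjusted p = 0.0065). With near copies added these were 0.30 (adjusted p = 0.079) and 0.32 (adjusted p = 0.0422).

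Rpl10, an X-linked protein that joins the large subunit late in its assembly, showed the largest difference of the 55 in IRV against NV, 0.86 ± 0.26 (SE), adjusted p = 0.0221. It stood at 73.5, 37.3, 109.8 and 80.3 CPM in NV, 120.1, 153, 121 and 64.8 in NP, 113, 110.0, 162 and 155 in IRV and 178, 135, 149 and 142 in IRP. NV spread widely, with NV 2 at 37.3 CPM, and 3 of 4 NP libraries lay above the shallow IRV libraries. In IRP against NP its difference was 0.40 ± 0.25 (SE), adjusted p = 0.219, which did not pass. Rpl10 is also a member whose call depends on near-identical genes: with the counts of its named pseudogenes added, the IRV difference was 0.28 (adjusted p = 0.167).

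Rpl37, a small protein of the large subunit, stood at 30.8, 29.6, 20.7 and 28.6 CPM in NV, 21.1, 49.8, 21.7 and 35.9 in NP, 29.8, 39.5, 56.7 and 49.5 in IRV and 54.5, 46.2, 50.4 and 46.6 in IRP. IRV 1 lay within the NV range, and NP 2 reached the level of the deep libraries. Its difference was 0.73 ± 0.24 (SE), adjusted p = 0.0285 in IRV against NV and 0.59 ± 0.22 (SE), adjusted p = 0.0427 in IRP against NP. With the counts of genes near-identical to it added, these became 0.17 (adjusted p = 0.45) and 0.05 (adjusted p = 0.82).

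Rpl19, whose long helix bridges to the small subunit, stood at 126, 109, 139 and 98.8 CPM in NV, 135, 182, 136 and 169 in NP, 123, 168, 173 and 160.2 in IRV and 179, 147, 190.0 and 156 in IRP. IRV 1 lay within the NV range and NP was as high as IRV, and only IRV against NV passed, at 0.41 ± 0.14 (SE), adjusted p = 0.0422, while IRP against NP gave 0.11 ± 0.14 (SE), adjusted p = 0.556. With near copies added the IRV difference was -0.10 (adjusted p = 0.555).

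Rps27, a zinc finger protein of the small subunit, had all IRV libraries above all NV libraries but did not pass the test, with NV spread from 15.4 to 35.1 CPM. It stood at 32.5, 24.9, 35.1 and 15.4 CPM in NV, 14.4, 34.2, 44.6 and 38.3 in NP, 42.1, 46.2, 43.3 and 43.7 in IRV and 52.2, 32.4, 59.2 and 49.2 in IRP. The differences were 0.71 ± 0.27 (SE), adjusted p = 0.0624 in IRV against NV and 0.56 ± 0.26 (SE), adjusted p = 0.09 in IRP against NP. Rps12 had the largest difference of the small subunit in IRP against NP, 0.75 ± 0.31 (SE), adjusted p = 0.0592, with NP spread from 9.79 to 49.97 CPM.

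The lowest differences in IRV against NV were those of Rpl38 and Rpl28 in the large and Rps2 and Rps3 in the small subunit, and none of them fell by the test. Rpl38, which is needed for the translation of a subset of Hox mRNAs in the mouse embryo, stood at 29.1, 34.4, 38.7 and 27.03 CPM in NV and 20.6, 27.96, 27.8 and 24.2 in IRV, at -0.33 ± 0.16 (SE), adjusted p = 0.138. The groups overlapped only at NV 4, which lay below IRV 2 and 3. Rps2, which lines the mRNA entry channel, stood at 140.2, 115, 139.6 and 122 CPM in NV and 91.5, 108, 138 and 109 in IRV, at -0.19 ± 0.12 (SE), adjusted p = 0.228, with IRV 3 within the NV range and the other 3 IRV libraries below it. Rpl28, a large subunit protein that budding yeast lacks, stood at 68.4, 41.1, 56.7 and 47.1 CPM in NV, 65.3, 69.2, 60.9 and 104 in NP, 25.7, 39.5, 53.4 and 54.7 in IRV and 61.4, 52.4, 50.1 and 60.7 in IRP. IRV 1 was the lowest library and NP 4 the highest. Its differences were -0.23 ± 0.22 (SE), adjusted p = 0.446 in IRV against NV and -0.42 ± 0.20 (SE), adjusted p = 0.105 in IRP against NP.

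**Figure D2:**
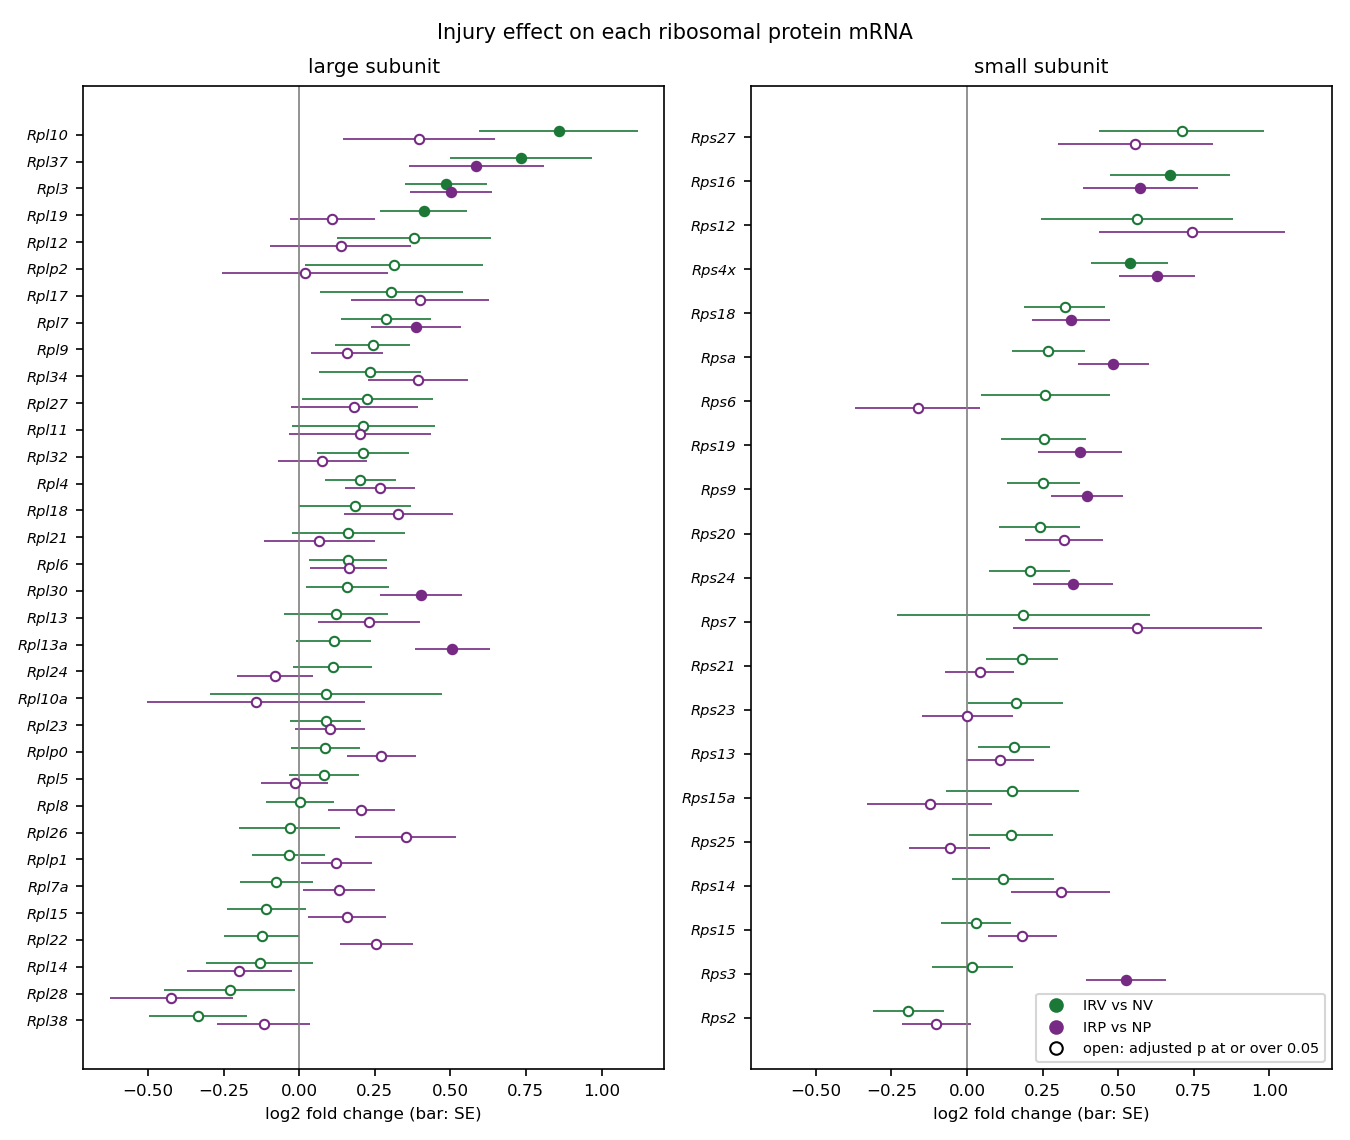
Log2 fold change of each of the 55 members in IRV against NV (green) and IRP against NP (purple), with bars for the SE of the edgeR fit (4 libraries a group); filled points passed at an adjusted p under 0.05. Most points lie right of 0 and all filled ones do, from 0.34 (Rps18, IRP against NP) to 0.86 (Rpl10, IRV against NV).

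With PJ34, IRP against NP, 13 members rose and none fell. They were Rpl3, Rpl7, Rpl13a, Rpl30 and Rpl37 of the large subunit (5 of 34) and Rps3, Rps4x, Rps9, Rps16, Rps18, Rps19, Rps24 and Rpsa of the small subunit (8 of 21). The share of 23.6% stood near the 19.6% of all genes that were higher, and 24% of all genes were lower. Fitted differences were positive for 28 of 34 large and 17 of 21 small subunit members against 49.3% of all genes, with medians of 0.17 and 0.34 and -0.01 over all genes. Scaled by library totals alone, the medians were 0.76 and 0.94 and that of all genes 0.57. With the library set as a term none of the 13 passed, but that term rests on the shallow against the deep IRV libraries alone and widens the SE. There were 10 members with all 4 IRP libraries above all 4 NP libraries, as had 19.6% of all genes. Of the members called in either comparison, Rpl3, Rpl37, Rps4x and Rps16 were called in both, which is 66.7% of the IRV calls and 30.8% of the IRP calls. These comparisons share no libraries, but both came from 1 fit of all 16 libraries with a shared estimate of the spread. The matching overlap over all genes was not counted, so these shares have no background beside them.

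Rpl13a, which also acts in the GAIT complex that represses inflammatory mRNAs, stood at 147, 123, 155 and 123 CPM in NV, 132, 142, 125 and 119 in NP, 116, 161, 168 and 144 in IRV and 188, 166, 203 and 179 in IRP. All IRP libraries lay above every NP and NV library, and of the IRV libraries IRV 3 alone reached into the IRP range. The log2 difference was 0.51 ± 0.12 (SE), adjusted p = 0.00331 in IRP against NP and 0.11 ± 0.12 (SE), adjusted p = 0.516 in IRV against NV.

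Rps3, at the mRNA entry site and also known for binding damaged DNA, stood at 116, 107, 133 and 134 CPM in NV, 109, 118, 109 and 102 in NP, 90.5, 117, 149 and 134 in IRV and 172, 145, 165 and 149 in IRP. IRV ranged from below every uninjured library (IRV 1) to above them (IRV 3 and 4), all IRP libraries lay above every uninjured one, and IRV 3 alone reached into the IRP range. The difference was 0.53 ± 0.13 (SE), adjusted p = 0.00421 in IRP against NP and 0.02 ± 0.13 (SE), adjusted p = 0.939 in IRV against NV. The difference between these 2 effects, the interaction of PJ34 with injury, was 0.51 (95% interval 0.11 to 0.90, adjusted p = 0.33) and did not pass. With the library set as a term it was 0.32 and did not pass either.

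Rpsa, which is also the precursor of a laminin receptor, stood at 195, 206, 199.9 and 220.1 CPM in NV, 189, 208, 183 and 219 in NP, 214, 227, 281 and 263 in IRV and 315, 230.5, 292 and 282 in IRP. The shallow IRV libraries lay just above or within the top of the uninjured range, and the deep ones well above it. The difference was 0.48 ± 0.12 (SE), adjusted p = 0.00356 in IRP against NP and 0.27 ± 0.12 (SE), adjusted p = 0.105 in IRV against NV.

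The other members called in IRP against NP and not in IRV against NV had smaller differences. Rps9, near the mRNA entry channel, changed by 0.40 ± 0.12 (SE), adjusted p = 0.0117, from 98.3 ± 7.69 CPM in NP to 129 ± 14.8 in IRP (SD, n = 4). Rpl30 changed by 0.40 ± 0.13 (SE), adjusted p = 0.0222, from 60.4 ± 8.47 to 80.3 ± 8.14 CPM. Rps19 and Rps24, both genes mutated in Diamond-Blackfan anemia, changed by 0.37 and 0.35 (adjusted p = 0.0361 and 0.0398). Rps18, in the head of the small subunit, changed by 0.34 ± 0.13 (SE), adjusted p = 0.0407. Rpl7 changed by 0.39 ± 0.15 (SE), adjusted p = 0.0445, and gave -0.21 (adjusted p = 0.629) with the library set as a term. With the counts of near copies added, Rps19, Rps24, Rps18 and Rpl7 did not pass, at 0.20, 0.26, 0.26 and 0.28 (adjusted p = 0.229, 0.102, 0.124 and 0.109). Whether these differ from the effect in vehicle mice was tested by the interaction, which called none of the 55. At the other end, Rpl28 and Rpl14 of the large and Rps6 and Rps15a of the small subunit were lowest, at -0.42, -0.20, -0.16 and -0.12, and none passed.

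The stalk proteins, which recruit the GTPase factors of translation to the large subunit, did not pass the test in either injury comparison. Rplp0 stood at 230.0, 209, 253 and 264 CPM in NV, 240.2, 275, 241 and 235 in NP, 220.0, 235, 281 and 276 in IRV and 329.9, 273, 288 and 308 in IRP. IRV 1 and 2 lay within the uninjured range, IRV 3 and 4 just above its top, which was NP 2 at 275 CPM, and IRP 1 and IRP 4 were the highest. Its difference was 0.09 ± 0.11 (SE), adjusted p = 0.6 in IRV against NV and 0.27 ± 0.11 (SE), adjusted p = 0.0621 in IRP against NP. Rplp1 was at 118 ± 14.6, 121 ± 14.6, 116 ± 14.1 and 132 ± 7.82 CPM in NV, NP, IRV and IRP (SD, n = 4), with differences of -0.03 and 0.12 (adjusted p = 0.86 and 0.421). Rplp2 was at 13.6 ± 5.47, 18.05 ± 8.43, 15.8 ± 4.76 and 17.8 ± 0.665 CPM, with differences of 0.31 and 0.02 (adjusted p = 0.444 and 0.966).

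The pair of the 5S particle did not pass either. Rpl5 stood at 105, 77.5, 98.1 and 103 CPM in NV, 121, 108, 107 and 104 in NP, 93.5, 95.4, 117 and 98.5 in IRV and 119, 107, 108 and 100.3 in IRP, and the groups overlapped throughout. Its differences were 0.08 ± 0.11 (SE), adjusted p = 0.619 in IRV against NV and -0.02 ± 0.11 (SE), adjusted p = 0.928 in IRP against NP. Rpl11 was at 42.2 ± 10.4, 35.04 ± 13.04, 49.0 ± 10.2 and 40.6 ± 8.27 CPM, with differences of 0.21 and 0.20 (adjusted p = 0.522 and 0.514). For both Rpl5 and Rpl11, near-identical genes held over 50% of the family's counts. With those counts added, the IRP differences were 0.25 for Rpl5 and 0.23 for Rpl11 (adjusted p = 0.0701 and 0.101), and neither passed. Trp53, the gene of the p53 protein that this pair stabilises through Mdm2, rose by 1.198 ± 0.25 (SE), adjusted p = 0.00196 in IRV against NV and by 1.003 ± 0.24 (SE), adjusted p = 0.00304 in IRP against NP. That is a rise in mRNA, whereas the pair acts on the protein, and a link between them was not tested.

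The levels of Rps6, the classic substrate of S6 kinase, overlapped between all groups. It stood at 103, 59.3, 126 and 95.7 CPM in NV, 154, 103, 105 and 152 in NP, 146, 82.1, 98.8 and 136 in IRV and 127, 107, 122 and 105 in IRP. Values over 140 CPM occurred in 2 NP libraries and in IRV 1, and the lowest value was NV 2. Its differences were 0.26 ± 0.21 (SE), adjusted p = 0.379 in IRV against NV and -0.16 ± 0.21 (SE), adjusted p = 0.553 in IRP against NP. With the counts of its named pseudogenes added, the IRP difference turned to 0.43 (adjusted p = 0.0214). With near copies added it was 0.33 (adjusted p = 0.0598), and with the library set as a term -0.24 (adjusted p = 0.785), and neither passed.

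**Figure D3:**
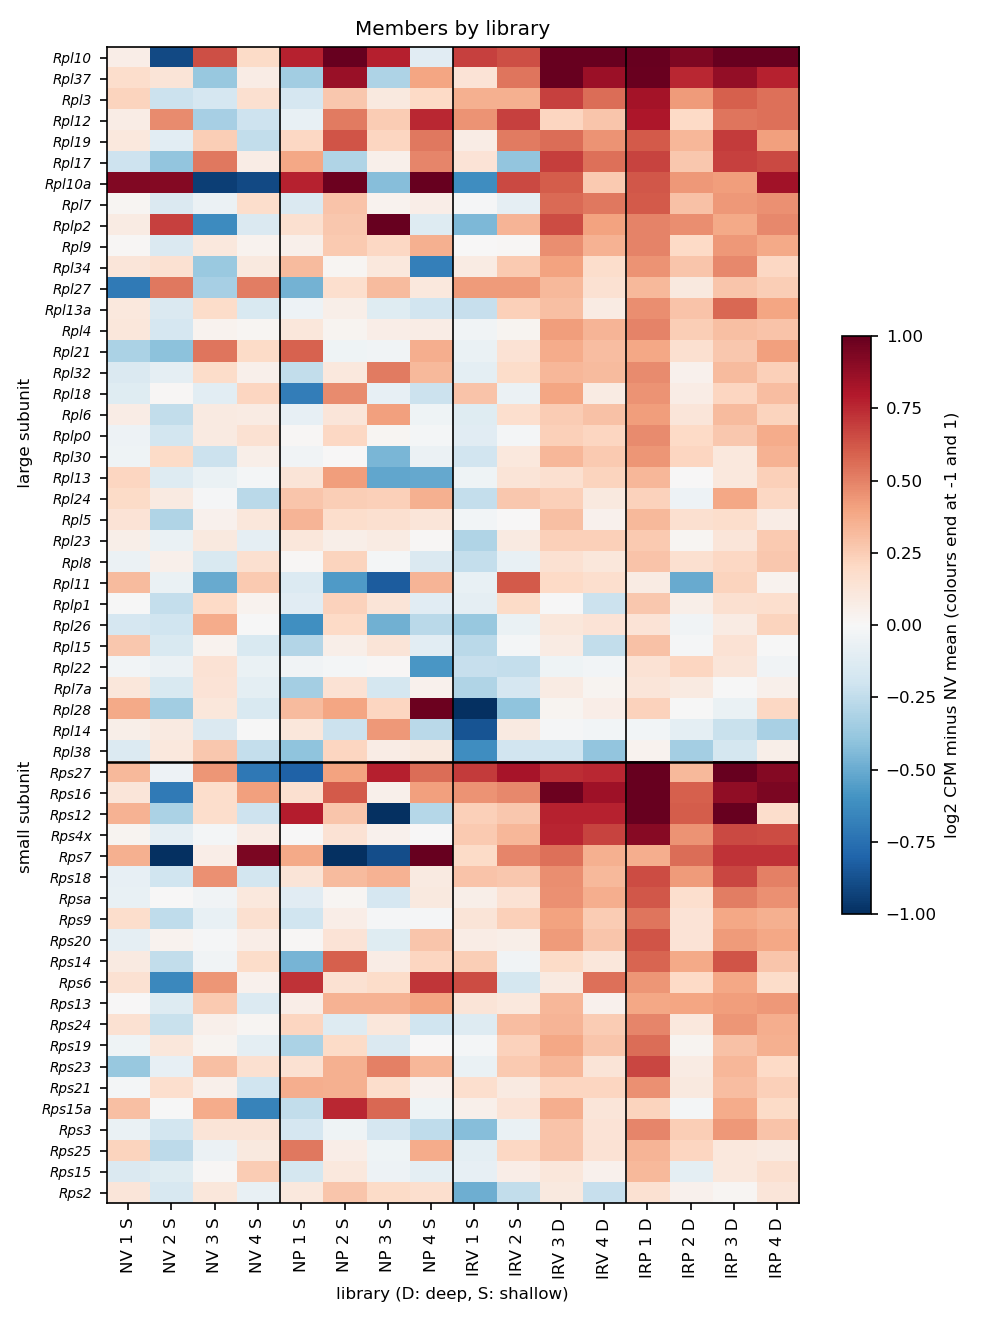
Each member's log2 CPM minus its mean in NV, by library (prior count 2), for 34 large subunit (top) and 21 small subunit members (bottom), with deep (D) and shallow (S) libraries marked; colours end at -1 and 1. The 6 deep columns are mostly red in both subunits, IRV 1 is mostly blue in the large subunit (mean -0.12), and Rpl10a and Rps7 vary widely among the uninjured libraries.

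The levels of the members differed between the library sets. Averaged over the large subunit, the log2 level minus the NV mean was -0.12 and 0.15 in the shallow IRV 1 and 2 and 0.34 and 0.23 in the deep IRV 3 and 4. For the small subunit these values were 0.11, 0.19, 0.41 and 0.30. In IRP, all deep, they were 0.43, 0.17, 0.31 and 0.31 for the large and 0.58, 0.24, 0.49 and 0.38 for the small subunit. Both deep IRV libraries lay above both shallow IRV libraries for 21 of 34 large and 11 of 21 small subunit members, where 27.2% of all genes did, and below them for 2 and 0, where 26.5% did.

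Set by set, the injury difference of the members was as follows. In the shallow libraries alone, IRV 1 and 2 against NV, no member passed (edgeR, lowest adjusted p of the members 0.0877, for Rpl28, a lower value; 3 members under an unadjusted p of 0.05), where 6.58% of all genes were higher; the medians were -0.01 for the large and 0.10 for the small subunit. With IRV 3 and 4 against the shallow NV libraries, 21 members rose and none fell, where 22.9% of all genes were higher, with medians of 0.26 and 0.32. The log2 difference was larger with the deep than with the shallow IRV libraries for 51 of 55 members. Rps4x had 0.29 (adjusted p = 0.25) with the shallow and 0.75 (adjusted p = 3.68e-05) with the deep IRV libraries, and Rpl10 had 0.55 (adjusted p = 0.201) and 1.10 (adjusted p = 0.000398). Rps27 had 0.72 and 0.74, and Rpl28 had -0.67 and 0.05.

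With the library set as a term of the fit, no member was higher in either injury comparison (lowest adjusted p in IRV against NV 0.0824; 5 members under an unadjusted p of 0.05), where 7.93% of all genes were higher in IRV against NV and 2.52% in IRP against NP. The medians were then -0.0011 (large) and 0.11 (small) in IRV against NV, and -0.08 and 0.12 in IRP against NP. In the latter Rpl28 was lower, at -1.11 (adjusted p = 0.0493). The set term was estimated from IRV 1 and 2 against IRV 3 and 4 alone, because no other group held both sets. For IRV against NV this fit thus sets the shallow IRV 1 and 2 against NV again and is no separate check. For IRP against NP it had wider errors, as for Rps4x, with an SE of 0.18 where the main fit gave 0.12. What part the depth and make-up of the libraries had in the shift of the members was not tested beyond these fits, and in IRP against NP the set and the injury cannot be told apart without IRV.

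**Figure D4:**
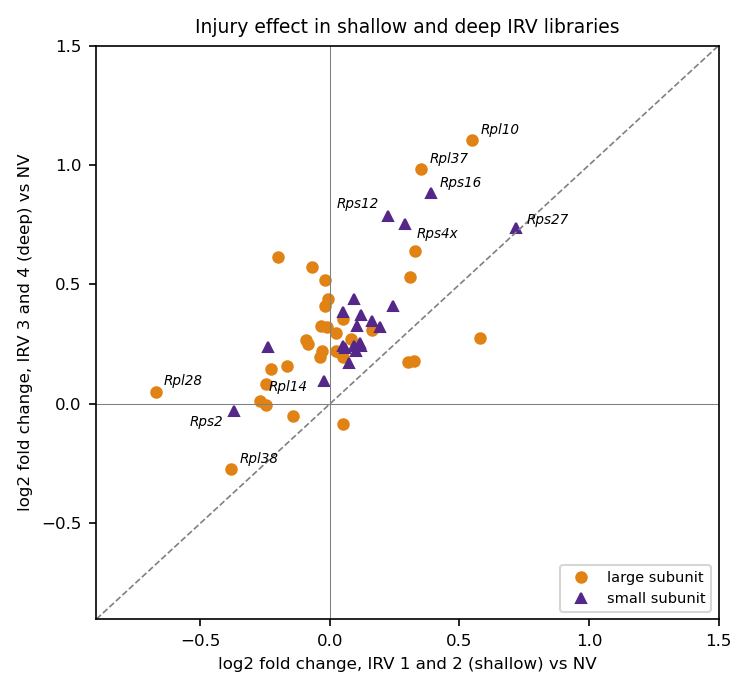
Log2 fold change against NV of each member with the 2 deep IRV libraries (vertical) and with the 2 shallow IRV libraries (horizontal); circles are large and triangles small subunit members, and the dashed line marks equal values. Of 55 points 51 lie above the line; shallow values run from -0.67 to 0.72 and deep values from -0.27 to 1.10.

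The number of calls also changed when single libraries were left out. In IRV against NV the 6 calls became 1 without NV 2, without IRV 3 or without IRV 4, 2 without NV 1 and 3 without NV 3 or NV 4, and Rps4x was called in each of the 8 fits that left out a library. Without IRV 3, Rps2 was called lower. In IRP against NP the 13 calls became 5 without NP 3 and 6 without NP 1, NP 4, IRP 1, IRP 3 or IRP 4, and Rps4x, Rpl13a, Rps3 and Rpsa were called in each of the 8 such fits. Without NP 3, Rpl28 was called lower. The shares of all genes called in these fits are not given here, so whether the members' calls moved more than those of other genes cannot be read from these counts.

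No member differed by the test between PJ34 and vehicle. In injured kidney, IRP against IRV, 0 of 55 members and 0% of all genes were called (edgeR; DESeq2 and limma-voom called no member either, though DESeq2 called 5 other genes higher and 1277 lower), and 6 members had an unadjusted p under 0.05 where 13.5% of all genes did. Fitted differences were positive for 51 of 55 members against 53.4% of all genes, with medians of 0.12 (large) and 0.16 (small). Rps3 had the lowest p, with 0.34 (95% interval 0.07 to 0.61, adjusted p = 0.17). Rpl13a followed at 0.31 (0.06 to 0.57, adjusted p = 0.186), then Rps2 at 0.27 (0.04 to 0.51, adjusted p = 0.244), and Rplp0 was next to Rpl13a in the large subunit at 0.24 (0.002 to 0.48, adjusted p = 0.363). Rpl8, Rps13 and Rps14 had all IRP libraries above all IRV libraries, where 1.51% of all genes did, and no member had them below, where 1.92% did. Within the deep libraries, the 4 IRP against IRV 3 and 4, the medians were -0.0022 and 0.06, 31 of 55 differences were positive, none passed and 2 had an unadjusted p under 0.05. Without IRV 3, Rps2 and Rps3 were called higher in IRP than in IRV.

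Among uninjured mice, NP against NV, both groups were shallow and edgeR called no member and 0% of all genes. DESeq2 and limma-voom called no member either. There were 4 members that had an unadjusted p under 0.05, where 3.68% of all genes did. The medians were 0.07 and 0.15, with 38 of 55 differences positive against 51.2% of all genes. Rpl19 had the lowest p, at 0.40 (95% interval 0.09 to 0.71), and the other 3 were Rpl28 at 0.50 (0.03 to 0.96), Rpl10 at 0.60 (0.03 to 1.17), the highest of the 55, and Rps13 at 0.29 (0.03 to 0.56). Rps23, the second of the small subunit by p, stood at 0.32 (-0.02 to 0.66). The adjusted p was 0.999945 for all 5. Rpl24 was the member with all NP libraries above all NV libraries, where 1.28% of all genes were, and no member had them below, where 1.15% did.

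The interaction, which asks whether the injury difference was the same with PJ34 as with vehicle, called no member and 0% of all genes with edgeR, and no member with DESeq2 or limma-voom. There were 3 members with an unadjusted p under 0.05, as had 11.4% of all genes. Differences were positive for 32 of 55 members and for 48.7% of all genes. The 3 were Rps3, Rpl13a at 0.39 (95% interval 0.02 to 0.76, adjusted p = 0.406) and Rpl22, which has a close paralog in Rpl22l1, at 0.38 (0.01 to 0.74, adjusted p = 0.417). IRP held deep libraries only and IRV both sets, so the interaction also takes in the library set. With the set as a term, Rps3, Rpl13a and Rpl22 gave 0.32, 0.32 and 0.30 (edgeR, unadjusted p = 0.082, 0.11 and 0.124). Rps6 was next after Rps3 in the small subunit, at -0.42 (-1.05 to 0.21).

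Near-identical genes limit what a member's count means, since Salmon divides reads among transcripts that share them. With a match of at least 95% identity over at least 200 bases of a transcript in GENCODE M21, 451 genes were near copies of members, 413 of them in the count table, and Rpl8 was the only member without one. Rpl21 had 61, Rpl7a 38, Rps2 32, Rpl17 25 and Rps12 22. The copies' counts made up 29.3 ± 1.36% of members plus copies in NV, 26.3 ± 2.38% in NP, 26.2 ± 0.439% in IRV and 26.4 ± 0.415% in IRP (SD, n = 4).

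For 10 members the copies held over 50% of the family's counts, led by Rpl12 (92.3%), Rps7 (80.3%) and Rpl11 (70.9%). Their coefficient of variation in NV had a median of 29.2%, against 11.7% in the 22 members whose copies held under 10%. Rps7 gives an example, at 26.5, 7.65, 21.6 and 40.2 CPM in NV and 26.9, 4.46, 10.9 and 42.2 in NP. None of the 10 was called in an injury comparison. Of the 22, 2 were called in IRV against NV and 6 in IRP against NP. Of the 23 members whose copies held 10 to 50%, 4 and 7 were called. Among all genes tested, 15.9% and 19.6% were higher in these comparisons. With the copies' counts added to each member, where 14% of all genes were higher and 13.4% lower, 3 members rose in IRV against NV (Rps4x at 0.45, Rps16 at 0.56 and Rps27 at 0.51; adjusted p = 0.00731, 0.0423 and 0.0162) and Rps2 fell, at -0.41 (adjusted p = 0.00957). In IRP against NP 11 rose, where 16.7% of all genes did, among them Rps4x at 0.56 and Rpl12 at 0.58 (adjusted p = 0.000948 and 0.00119).

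The cytosolic ribosomal protein genes outside the members were called at about the share of all genes. Of 25 tested, 4 rose and none fell in IRV against NV (16% higher against 15.9% of all genes, median 0.14), and 6 rose and none fell in IRP against NP (24% against 19.6%, median 0.19). Rpl31 rose in both, by 0.39 and 0.37 (adjusted p = 0.0165 and 0.0122), as did Rps3a1, by 0.43 and 0.36 (adjusted p = 0.025 and 0.0358). Rpl36 rose in IRV against NV, by 0.65 (adjusted p = 0.0265). Both deep IRV libraries lay above both shallow ones for 19 of these 25, where 27.2% of all genes did, and below them for 1, where 26.5% did.

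Of the paralogs, 5 of 8 were tested. Rps27l, a p53-inducible relative of Rps27, fell in IRV against NV by 0.90 on the log2 scale (SE 0.23, adjusted p = 0.00722), from 45.3, 35.4, 34.2 and 38.6 CPM in NV to 18.5, 22.5, 20.7 and 20.3 in IRV, and the groups did not overlap. In IRP against NP it gave -0.53 ± 0.22 (SE), adjusted p = 0.0638. The fitted difference of Rps27 was positive in both comparisons and that of its paralog negative. Rps4l, a relative of Rps4x, passed in IRP against NP at 1.72 ± 0.56 (SE), adjusted p = 0.02, with 1.68 ± 1.26 CPM in NP, where NP 1 had none, and 5.75 ± 0.779 in IRP (SD, n = 4). Rpl22l1 gave -0.04 and 0.15 (adjusted p = 0.932 and 0.691), and Rpl3l and Rpl10l, known from muscle and testis, were below the count filter.

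The mRNAs for proteins of the mitochondrial ribosome, which translates the mitochondrial genome, had negative medians under TMM scaling. Of 78 tested, 21 fell and none rose in IRV against NV (26.9% against 11.1% of all genes), with a median of -0.44. In IRP against NP 21 fell and none rose, 26.9% where 24% of all genes fell and so near the background, with a median of -0.31. When libraries were scaled by their totals alone, which moves the median of all genes to 0.49 and 0.57, these medians turned positive, at 0.09 and 0.26. Mrpl51 had the lowest p in IRV against NV, going from 41.9, 43.04, 54.02 and 48.6 CPM in NV to 26.7, 26.1, 28.1 and 26.7 in IRV, at -0.79 ± 0.13 (SE), adjusted p = 0.000434. Mrpl12 and Mrpl16 followed at -0.88 and -0.73 (adjusted p = 0.00108 and 0.00234). The median was -0.44 in the shallow libraries alone, -0.45 with the deep IRV libraries and -0.44 with the set as a term, and thus had nearly the same size in every set, where the cytosolic medians did not. Calls in these fits numbered 5 (shallow), 24 (deep) and 5 (set as a term), all lower. The shares of all genes lower in the same fits are not given here, so these counts have no background beside them.

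**Figure D5:**
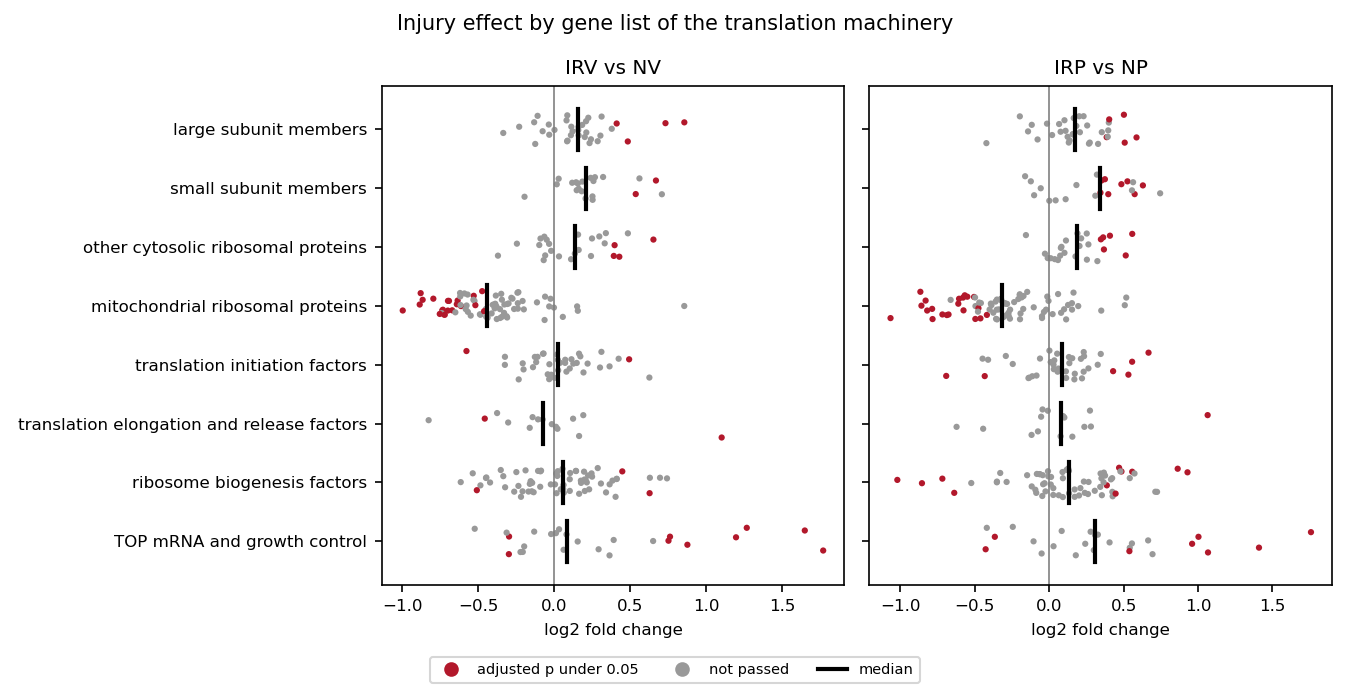
Log2 fold change of every tested gene in 8 lists of the translation machinery, in IRV against NV (left) and IRP against NP (right), with TMM scaling; red points passed at an adjusted p under 0.05 and black bars are list medians. The cytosolic ribosomal protein lists sit to the right of 0 and the mitochondrial list to the left (medians -0.44 and -0.31, which became 0.09 and 0.26 when scaled by totals alone). Initiation, elongation and biogenesis factors have medians from -0.07 to 0.06 on the left and from 0.08 to 0.13 on the right.

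Initiation factors, elongation and release factors, and biogenesis factors had median log2 differences of 0.03, -0.07 and 0.06 in IRV against NV. In IRP against NP these medians were 0.09, 0.08 and 0.13, where that of the large subunit members was 0.17. For the counts that follow, 15.9% of all genes were higher and 11.1% lower in IRV against NV. The shares were 19.6% and 24% in IRP against NP. Of 38 initiation factors 1 rose and 1 fell in IRV against NV (4 and 2 in IRP against NP). Pabpc1, the poly(A)-binding protein, whose own mRNA carries a TOP motif, rose by 0.49 and 0.56 (adjusted p = 0.00459 and 0.00117), and Eif4e, the cap-binding protein, gave -0.58 and -0.29 (adjusted p = 0.00748 and 0.11). Of 15 elongation and release factors, Eef2k, the kinase that inhibits elongation factor 2, rose by 1.104 and 1.06 (adjusted p = 0.0272 and 0.0116), and Eef1d fell in IRV against NV, at -0.46 (adjusted p = 0.0122). Of 67 ribosome biogenesis factors 2 rose and 1 fell in IRV against NV (7 and 4 in IRP against NP). Npm1, a chaperone of the nucleolus, rose by 0.45 and 0.49 (adjusted p = 0.0179 and 0.00661), Nop56, of the rRNA-methylating particle, rose by 0.63 in IRV against NV (adjusted p = 0.0323), and Nmd3, the export adaptor that Rpl10 helps release, fell there, at -0.51 (adjusted p = 0.0339).

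The list of growth control genes upstream of the ribosome held larger single changes. Of 25 tested, 7 rose (28%) and 2 fell (8%) in IRV against NV, beside background shares of 15.9% rising and 11.1% falling. In IRP against NP 6 rose (24%) and 2 fell (8%), where the background stood at 19.6% rising and 24% falling. The share of the list that rose in IRP against NP was thus near the background, and the share that fell was under it. Rps6ka1 and Rps6ka3, kinases that can phosphorylate Rps6, rose by 1.27 and 0.75 in IRV against NV (adjusted p = 0.00035 and 0.000542) and by 1.41 and 0.54 in IRP against NP. Akt1, a kinase that activates mTORC1, rose by 0.88 and 0.96 (adjusted p = 0.000813 and 0.000249).

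The make-up of the tissue moved with the same comparisons. All 10 proximal tubule markers fell in IRV against NV and 9 of 10 in IRP against NP, their sum ranging over 9976 to 12176 CPM in NV, 11108 to 14252 in NP, 4264 to 6286 in IRV and 4490.4 to 8362 in IRP, with none at 0 in any library. All 10 macrophage markers rose in both, their sum ranging over 70.8 to 103, 73.99 to 133, 581 to 989 and 438 to 1164 CPM in the same order, and of these Cd14 alone was at 0, in 4 uninjured libraries. Of 7 fibroblast markers 6 rose in both, their sum ranging over 146 to 339, 260.4 to 382, 1293 to 2057 and 920.4 to 2434 CPM. Of 6 tested lymphocyte markers 4 rose in both, 1 fell in IRP against NP, and 13 of 13 tubular injury markers rose in both. Of 6 thick limb and distal tubule markers 3 fell in each comparison, and in IRP against NP 3 of the 6 differences were positive. Of 5 collecting duct markers 0 were called in either. Among all genes tested, 15.9% were higher and 11.1% lower in IRV against NV, and 19.6% and 24% in IRP against NP. In whole tissue, fewer cells of a type and less RNA per cell cannot be told apart, and the part of cell make-up in the members' differences was not tested. The IRV libraries with the lower member levels, IRV 1 and 2, held macrophage sums of 696 and 581 CPM, and IRV 3 and 4 held 989 and 777 CPM. Other marker sums did not order these IRV libraries so. Lymphocyte sums were 233, 424, 285 and 167 CPM in IRV 1 to 4, fibroblast sums 1947, 1293, 2057 and 1521 and proximal tubule sums 4264, 6112, 5166 and 6286. Within IRP, IRP 1 and IRP 2 held the highest and lowest member sums. They were also highest and lowest for macrophage (1164 and 438 CPM) and fibroblast sums (2434 and 920.4), and lowest and highest for proximal tubule sums (4490.4 and 8362). Lymphocyte and collecting duct sums were highest in IRP 3.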

How the data were processed

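Poly(A)-selected kidney RNA of 16 libraries (4 groups of 4) was prepared with a directional kit, per the labels' protocols. The authors deposited estimated counts per gene, whole numbers in 1 table; they name Salmon 1.3.0, with Trim Galore 0.6.6, FastQC 0.11.3, DESeq2 1.30.1 and build GRCm39, per the submitters' processing notes. Groups came from the labels, and every column of the table was used (0 not used). Of 40472 gene IDs, 40276 were paired with a symbol.

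Counts were filtered (edgeR 4.0.16 filterByExpr, minimum count 10), scaled by TMM and tested with edgeR's quasi-likelihood test in R 4.3.3, all 16 libraries in 1 fit, with Benjamini-Hochberg adjustment over 13614 genes and a threshold of 0.05. Log2 levels used a prior count of 2. Libraries over 3e+06 counts were called deep. Alternatives used DESeq2 1.42.0, limma 3.58.1 (voom), other scalings, no filter, the library set, single libraries left out, and counts of pseudogenes or near copies (BLAST+ 2.17.0 against GENCODE M21) added. The scripts were tested on simulated data. No 2 libraries of a group agreed within sampling noise (lowest chi-square per degree of freedom 1.83).

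The members and lists were chosen with earlier results of these data known. Named with values were, per subunit, the 3 members with the smallest p and the 2 highest and 2 lowest in each injury comparison, the 2 with the smallest p in the others, the stalk proteins, Rpl5, Rpl11 and Rps6, and the leading genes of the other lists. Other genes were named after their values were seen.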

Additional observations from a re-analysis of the deposited data

Results flagged for a closer look

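Of 120 sets of 4 libraries examined for a single distant library, 7 had one, where chance gives about 1 in 20. In NP, Rpl22 stood at 60.1 CPM in NP 4 against 88.4 to 91.3 in the other 3 libraries. Rpl30 stood at 47.8 CPM in NP 3 against 63.3 to 66.2. Rplp0 stood at 275 CPM in NP 2 against 235 to 241. Rps13 stood at 38.4 CPM in NP 1 against 46.8 to 48.4. The summed large subunit members stood at 3700 CPM, to 3 digits, in NP 2 against 3300 to 3360. NP 2 was also the uninjured library whose description in the labels ends in 32, where those of the other 7 end in 1 to 7. In IRV, Rpl14, a protein of the large subunit, stood at 45.2 CPM in IRV 1 against 81.1 to 88.1, and the ratio of small to large subunit sums was 0.546 in IRV 1 against 0.499 to 0.504.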

How the results depend on the processing

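Of 6790 recomputed differences of single genes, 5959 kept their sign and their side of the threshold, 209 lost the threshold and 170 gained it. The sign changed for 437 called in neither fit and for 15 called in one of them. These 15 and the counts of calls that moved are given here. With library totals as the only scaling, 45 members were higher in IRV against NV and 49 in IRP against NP, where 42% and 51.5% of all genes were higher and 1.81% and 13.1% lower, and the median over all genes moved to 0.49 and 0.57. Under that scaling Rplp1 gave 0.46, Eef1d 0.0698 and Nmd3 0.0223 in IRV against NV, and Rpl5 gave 0.58, Rpl24 0.51, Rpl38 0.48, Rps2 0.49 and Rps25 0.53 in IRP against NP. With no filter on low counts, 14 and 43 members were higher (7.72% and 14.3% of all genes), and Rpl5 gave 0.42 in IRP against NP. With the library set as a term, 0 and 0 were higher, 1 was lower in IRP against NP, and Rpl37 gave -0.0069 and Rpl7 -0.21 there. Within the shallow libraries 0 were higher in IRV against NV. With named pseudogenes added, Rps6 gave 0.43 and Rpl10a 0.52 in IRP against NP, and Rpl19 -0.010 in IRV against NV. Alternatives chosen after seeing the data were near copies added (3 higher and 1 lower in IRV against NV, and Rpl19 at -0.10), the deep IRV libraries against NV (21 higher) and mitochondrial genes left out (6 and 13). The cause was not tested for any of these. Leaving out 1 library gave 1 to 7 members higher and 0 to 1 lower in IRV against NV, 5 to 17 higher and 0 to 1 lower in IRP against NP, and 0 to 2 higher in IRP against IRV. These ranges have no share of all genes beside them. In IRV against NV and IRP against NP, DESeq2 gave 6 and 14 higher (15.2% and 18.6% of all genes), limma-voom 7 and 13 (11.6% and 13.5%), RLE scaling 6 and 13 (15.7% and 19.5%), and receptor genes left out 6 and 11 (16.2% and 19.3%). With the replicate number as a block, 5 and 11 members were higher (15.2% and 18.8% of all genes) and 0 in the other comparisons. Over 16 pairs of same-numbered libraries, deviations from the group means correlated from -0.226 to 0.259, 4 over 0.1, so the numbers were not taken to pair the libraries. How far the depth of the shallow libraries, 4503 to 8538 member counts, limits the calls was not tested.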
